A study of Caenorhabditis elegans with 6 samples.

Results

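In the nematode Caenorhabditis elegans, 6 metal-handling genes of the intestine were followed by their counts in whole animals, among 19512 genes. These are mtl-1 (K11G9.6), mtl-2 (T08G5.10), cdr-1 (F35E8.11), ftn-1 (C54F6.14), ftn-2 (D1037.3) and cdf-2 (T18D3.3). They were chosen by gene name, and all 6 had a row of counts. Whole-animal polyA RNA came from 6 cultures of the wild-type strain N2, 3 labelled control and 3 labelled elt-2 RNAi, with the letters A, B and C in each group. Each culture began with some 10000 synchronized L1 larvae on bacteria carrying an empty vector (control) or making double-stranded RNA against elt-2, the GATA transcription factor of the intestine, and was harvested 28 hours later at the L4 stage. Below they are called controls and RNAi libraries, after their labels, and a run of 3 values follows the letters A, B and C. The study's methods called the cultures biological replicates.

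Metal ions such as zinc, copper and iron are needed by every cell but are toxic in excess, cadmium is toxic, and the worm intestine takes them up, stores them and detoxifies them. Metallothioneins (mtl-1, mtl-2) are small cysteine-rich proteins that bind such ions. Ferritins (ftn-1, ftn-2) store iron, with ftn-1 read mainly in the intestine and ftn-2 in more tissues. cdf-2 encodes a transporter that loads zinc into the lysosome-related gut granules, and cdr-1 was named for its induction by cadmium. In C. elegans, GATA sites and ELT-2 are known to act in the intestinal expression of the metallothioneins and of ftn-1.

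Libraries were made by 3SEQ, which reads the 3-prime ends of transcripts, so that counts were not scaled by gene length. They held 16568515 to 35047530 counts, and all RNAi libraries were deeper than all controls. Levels are CPM, the count relative to all counts of a library, after TMM scaling, a factor for each library that adjusts for its composition and that ran from 3.45 in control A to 0.492 in RNAi C. The RNAi target went against the labels. elt-2 had 233, 48 and 78 counts among the controls and 689, 111 and 3070 counts among the RNAi libraries, and was called higher in RNAi (4.6 on the log2 scale with SE 1.16, edgeR adjusted p 0.0395), though not without control A (4.7, edgeR adjusted p 0.103) or without RNAi C (2.8, edgeR adjusted p 0.135). The B libraries of both labels were unlike the A and C libraries of the same label in many genes described here, so fold changes are also given without either of them. Whether the B columns are exchanged in the table was not tested, and the labels were kept as deposited, so each fold change holds only for the libraries as labelled. Genes were called at a Benjamini-Hochberg adjusted p under 0.10 over 11474 tested genes (edgeR quasi-likelihood test, two-sided), of which 28.9% were called, 15.9% as lower and 13% as higher in RNAi.

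Of the 6 genes, ftn-2 was called higher in the RNAi libraries, none was called lower, mtl-1, mtl-2, ftn-1 and cdf-2 were not called, and cdr-1 had too few counts to be tested. This was 1 call among 5 tested genes, or 20%, which was not above the 28.9% of all tested genes. Groups without overlap were found for 2 of the 5, ftn-2 and cdf-2, or 40%, beside 46.7% of all tested genes. mtl-1, mtl-2 and ftn-1 varied more within each labelled group than between the groups. Their low libraries included control B, RNAi A and RNAi C, and their high libraries included control C and RNAi B.

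**Figure D1:**
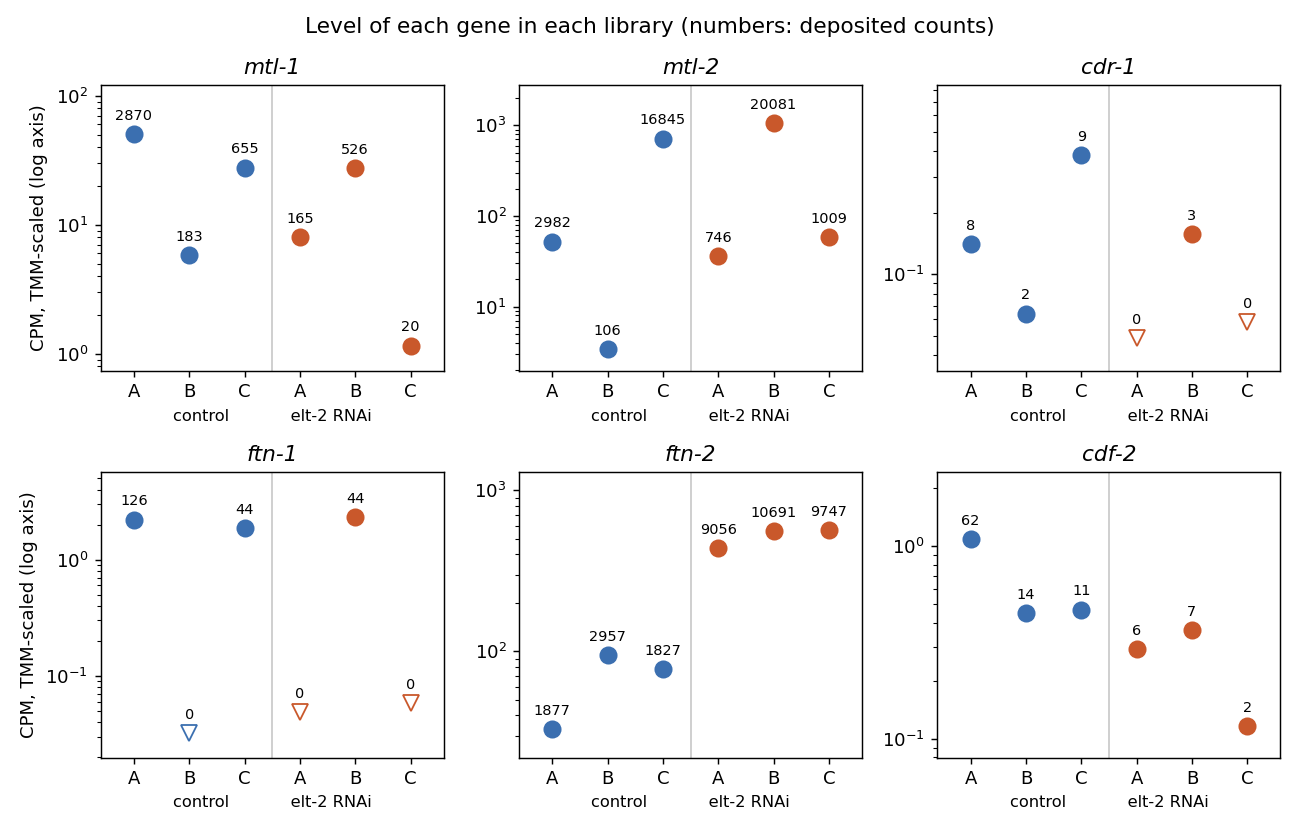
Level of each of the 6 genes in each library, in TMM-scaled CPM on a log axis, with the deposited count beside each point; blue points are libraries labelled control, orange points those labelled elt-2 RNAi, and open triangles mark a count of 0, drawn at the level of 1 count. For mtl-1, mtl-2 and ftn-1 control B, RNAi A and RNAi C lie below control C and RNAi B, whereas all 3 elt-2 RNAi points of ftn-2 lie above all 3 control points.

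The metallothionein mtl-2 (WBcel235 chromosome V, 14018270 to 14018673, minus strand, 2 exons) was the most variable of the set. It had 2982, 106 and 16845 counts among the controls, or 52.2, 3.38 and 715 CPM. It had 746, 20081 and 1009 counts among the RNAi libraries, or 36.1, 1050 and 58.6 CPM. Control C and RNAi B were thus far above the other 4 libraries, control B was far below them, and the labelled groups overlapped. Within the labelled controls the highest level was 211 times the lowest, and within the RNAi libraries it was 29.1 times the lowest. In rank by counts over the 19512 genes mtl-2 stood at 170 in control C and 186 in RNAi B, but at 6320 in control B. The difference between the labelled groups was smaller than this spread, at 0.57 on the log2 scale (SE 1.71, edgeR adjusted p 0.820). It had no stable sign. Library size alone gave -0.29, and the fit without RNAi B gave -2.39 (edgeR adjusted p 0.372).

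The metallothionein mtl-1 (chromosome V, 6691371 to 6691863, minus strand, 2 exons) had a related pattern at lower levels in most libraries. Its counts were 2870, 183 and 655 among the controls and 165, 526 and 20 among the RNAi libraries. This corresponded to 50.2, 5.84 and 27.8 CPM against 7.99, 27.5 and 1.16 CPM. Control A was highest, control C and RNAi B were nearly level with each other, and control B lay below RNAi A, so the groups overlapped. The log2 fold change was -1.19 (SE 1.05, edgeR adjusted p 0.420). It was called lower with library size alone (-3.14, edgeR adjusted p 0.0375), a scaling that moved the median of all tested genes from -0.12 to -1.76 and called 56.1% of them.

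The balance between the metallothioneins shifted among the libraries. There were 1.04 and 0.579 mtl-2 counts for each mtl-1 count in control A and B, against 25.7 in control C and 4.52, 38.2 and 50.5 among the RNAi libraries. Control A and B were thus the libraries in which mtl-1 was about as abundant as mtl-2 or more so, while mtl-2 dominated in the other 4 libraries. The same libraries stood apart in the summed level of 6 hypodermis markers (dpy-7, rol-6, dpy-10, sqt-3, noah-1 and elt-3, genes of the epidermis and its cuticle), at 176 and 297 CPM in control A and B against 12.9 CPM in control C and 15.8 to 19.6 CPM in the RNAi libraries. Of these, dpy-7, dpy-10, sqt-3 and noah-1 were high in control A and B, rol-6 was lower there, elt-3 was highest in control A (4.76 CPM) and lowest in control B (2.01 CPM), and none of the 6 was at 0 in any library. The part of this difference in the ratio was not tested.

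**Figure D2:**
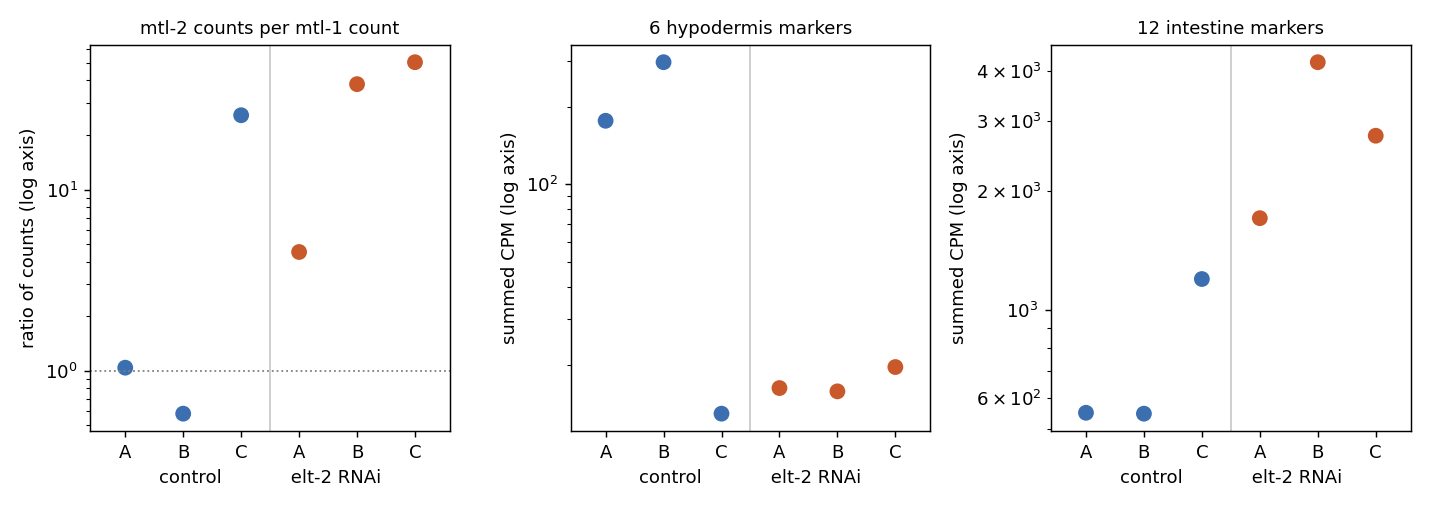
Left, mtl-2 counts for each mtl-1 count in each library, with a dotted line at 1; middle and right, summed TMM-scaled CPM of the 6 hypodermis and 12 intestine markers; all axes are logarithmic, with control libraries in blue and elt-2 RNAi libraries in orange. The ratio is 1.04 and 0.579 in control A and B and at least 4.52 elsewhere, and the hypodermis sum is high in control A and B.

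The ferritin gene ftn-1 (chromosome V, 7546468 to 7547579, minus strand, 3 exons) was read in 3 libraries and absent from the counts of the other 3. It had 126, 0 and 44 counts among the controls and 0, 44 and 0 counts among the RNAi libraries. The 3 libraries with reads were close to each other at 2.21, 1.87 and 2.3 CPM in control A, control C and RNAi B. A count of 0 allowed up to 3 counts, or 0.0957 CPM in control B and 0.145 and 0.174 CPM in RNAi A and C, for counting error only. On this limit control A was at least 23.0-fold and control C at least 19.5-fold higher than control B, and RNAi B was at least 15.8-fold and 13.2-fold higher than RNAi A and C. The labelled groups overlapped, and the fit gave -0.82 on the log2 scale (SE 1.70, edgeR adjusted p 0.738), a fitted value that depends on the treatment of the zeros.

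The second ferritin gene, ftn-2 (chromosome I, 3680180 to 3680927, minus strand, 3 exons), differed between the labelled groups by more than it varied within them. It had 1877, 2957 and 1827 counts among the controls and 9056, 10691 and 9747 counts among the RNAi libraries. In CPM these were 32.9, 94.4 and 77.5 against 438, 559 and 566. All 3 RNAi libraries were above all 3 labelled controls, with and without TMM scaling. With TMM scaling the same was found for 22.5% of all tested genes, and the share without it was not computed. The means were 521 ± 71.7 CPM and 68.3 ± 31.8 CPM (SD, n = 3), a log2 difference of 2.93 in the fit (SE 0.57, edgeR adjusted p 0.0195). Across 14 alternatives it ran from 1.57 to 3.17 (adjusted p 1.02e-07 to 0.105), and it was not called when RNAi C was left out (2.93, edgeR adjusted p 0.105), where 3.66% of genes were called. The lowest value, 1.57, was that with library size alone (edgeR adjusted p 0.0210), where 56.1% of tested genes were called. The size of the difference thus depends on TMM scaling.

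Several other values moved with ftn-2. Depth was higher, and the TMM factor lower, in each RNAi library than in any control. Summed markers of body wall muscle were at 263, 415 and 848 CPM for controls and at 1055, 1093 and 1016 CPM for RNAi libraries, and those of the germline at 125, 299 and 363 CPM and at 575, 605 and 789 CPM. Neuron markers ran the other way, at 39.8, 35.5 and 23.6 CPM for controls and no more than 18.5 CPM in any RNAi library. The muscle and germline sums depend on TMM scaling. Of the 5 markers in each of these 2 lists, 1 was called higher (unc-22 and glh-1) and 4 were not called. With library size alone lev-11, him-3 and pgl-1 were lower in every RNAi library, glh-1 was higher in every one, and the other markers of these lists overlapped. The summed level of 12 intestine markers was 549, 546 and 1195 CPM among the controls against 1703, 4217 and 2750 CPM among the RNAi libraries. None of the 12 markers was at 0 in a library. This sum was carried by the aspartyl protease gene asp-1, and over the list 3 markers were called higher (act-5, asp-1 and pept-1), 2 lower (elt-7 and lgmn-1) and 7 not at all, with a median log2 fold change of 0.14 beside -0.12 for all tested genes. Their part in the ftn-2 difference was not tested. In whole animals, a change in the number of cells of a type and a change in RNA per cell cannot be told apart.

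The zinc transporter gene cdf-2 (chromosome X, 12464640 to 12466917, minus strand, 2 transcripts) had few reads. It had 62, 14 and 11 counts among the controls and 6, 7 and 2 counts among the RNAi libraries, or 1.09, 0.447 and 0.467 CPM against 0.291, 0.366 and 0.116 CPM. All 3 RNAi libraries lay below all 3 controls, as did 24.2% of all tested genes, but control B and C were close to RNAi B. The log2 fold change was -1.37 (SE 0.66, edgeR adjusted p 0.166) and the gene was not called. It was called lower with library size alone (-3.25, edgeR adjusted p 0.0262) and with a library size that leaves out the top 3% of genes by abundance (-1.96, edgeR adjusted p 0.0645), scalings under which 56.1% and 43.2% of all tested genes were called.

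The cadmium-responsive gene cdr-1 (chromosome V, 15921309 to 15922820, plus strand, 6 exons) was near the limit of detection. It had 8, 2 and 9 counts among the controls and 0, 3 and 0 counts among the RNAi libraries. The RNAi libraries were all at or under 3 counts, so a difference was not detectable at this depth and no fold is given. Its order was like that of ftn-1, with control B lowest among the controls and RNAi B highest in its labelled group.

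Differences between libraries of the same letter did not share a sign in mtl-1, mtl-2 and ftn-1. The log2 difference of elt-2 RNAi from control, with a prior count of 2, was -0.53, 8.25 and -3.61 for mtl-2. In mtl-1 it was -2.64, 2.22 and -4.50, and in ftn-1 -5.0, 5.06 and -4.77. cdr-1 had too few counts for such a difference, with 2 in control B and 3 in RNAi B. mtl-1, mtl-2 and ftn-1 were thus higher in elt-2 RNAi for the letter B and lower for A and C. ftn-2 was higher for every letter, by 3.74, 2.57 and 2.87, and cdf-2 lower for every letter, at -1.68, -0.24 and -1.52. Same letters did not mark paired cultures in the labels, and these differences are a description.

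The B libraries were set aside with their values for these genes known, so calls made without them are conditional on that choice and give no independent support. Without both B libraries, mtl-1 and ftn-1 were called lower, with log2 fold changes of -3.17 (edgeR adjusted p 0.0970) and -8.94 (edgeR adjusted p 0.0502), while 15.9% of 11696 tested genes were called. Since ftn-1 then had 0 counts in both RNAi libraries, its fitted value is no bound, and on the limit of 3 counts for a library the mean of control A and C was at least 12.8-fold higher. mtl-2 had -3.09 and was not called (edgeR adjusted p 0.160), and cdf-2 had -1.98 (edgeR adjusted p 0.167). ftn-2 remained higher at 3.12 (edgeR adjusted p 0.0880).

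**Figure D3:**
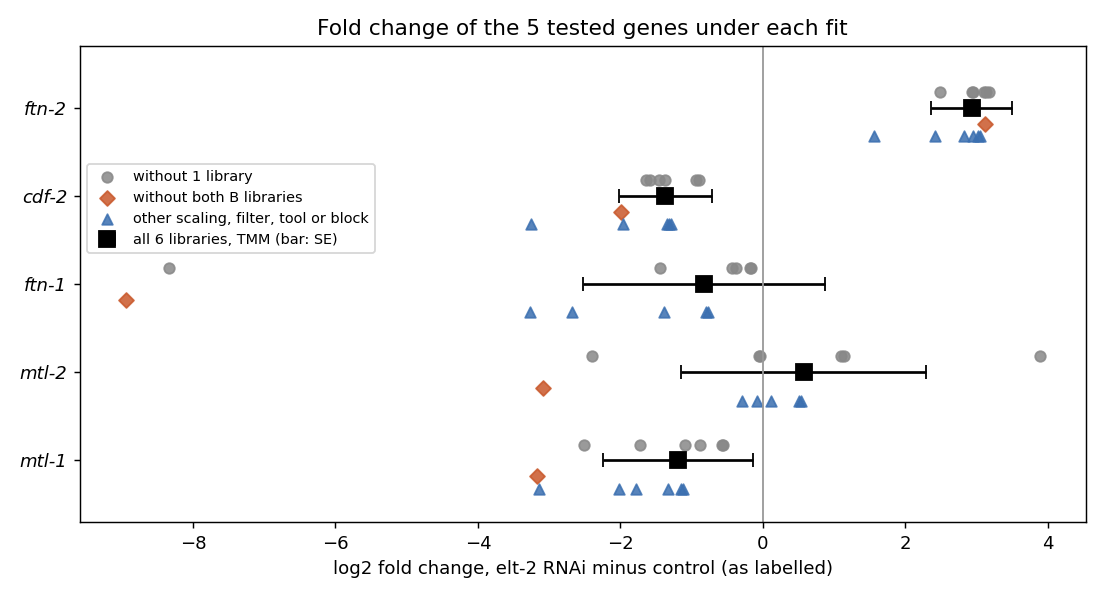
Log2 fold change (elt-2 RNAi minus control, as labelled) of the 5 tested genes, with the fit on all 6 libraries as black squares with SE, fits without 1 library as grey circles, the fit without both B libraries as orange diamonds, and other scalings, filters, tools and the replicate block as blue triangles. ftn-2 lies above 0 in every fit shown, mtl-2 lies on both sides of 0, and mtl-1, ftn-1 and cdf-2 lie below 0.

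The order of the 6 genes by level differed among libraries. ftn-2 was the most abundant in control B and in RNAi A and C, whereas mtl-2 was the most abundant in control A, control C and RNAi B. In control A the 3 leading genes, mtl-2, mtl-1 and ftn-2, were within a narrow range at 52.2, 50.2 and 32.9 CPM. cdf-2, ftn-1 and cdr-1 were the lowest 3 in every library, and the highest value of the 3 was the 2.3 CPM of ftn-1 in RNAi B.

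Control B was the lowest control and RNAi B the highest of its labelled group for 5 of the 6 genes, all but ftn-2. Among the genes that could be tested these were 4 of 5, whereas the same order was found in 20.1% of all tested genes. With library size alone it was 3 of 5, since control C was then below control B for cdf-2, against 13.4% of all tested genes. The order was not particular to the 6 genes. Of 37 other tested metal-handling genes, described below, 20 had it (54.1%), and 14 with library size alone (37.8%). The order was seen in the data first and is given with no test. Among the 12 intestine markers 4 had it, or 33.3%, 1 of which was cpr-6, a cathepsin B protease of the gut, at 6507, 829 and 7829 counts among the controls and 1014, 9575 and 704 counts among the RNAi libraries.

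To place the 6 genes among their pathways, 50 other genes of zinc, cadmium, iron, copper and heme handling were listed by symbol. Rows were found for 48, of which 37 had enough counts to be tested. Of these 10 were called lower and 2 higher in the RNAi libraries, or 32.4% beside 28.9% of all tested genes. The median log2 fold change was -0.56, beside -0.12 over all tested genes. The calls depended on single libraries, as did those of all tested genes. They were 0 lower and 0 higher without RNAi C and 1 and 0 without RNAi A, where 3.66% and 13.3% of all tested genes were called. Without control A, RNAi B or control C they were 3, 3 and 5 lower and 0, 0 and 2 higher. Of all tested genes 14%, 9.96% and 33.3% were then called. Leaving out control B gave 8 lower and 1 higher, beside 25.2% of all tested genes called.

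Over all tested genes 15.9% were called lower and 13% higher, which is the background for the counts by metal that follow. Zinc genes held 5 of the lower calls among 15 tested genes and no higher call. These were the ZIP family genes zipt-11 (log2 fold change -1.68, SE 0.37, edgeR adjusted p 0.0285), zipt-9, zipt-2.1, zipt-3 and zipt-2.4, the other 4 lying between -1.66 and -1.18. zipt-11, a member of the family that moves zinc into the cytoplasm, had 693, 432 and 168 counts among the controls and 80, 59 and 58 counts among the RNAi libraries. Its level was 12.1, 13.8 and 7.13 CPM against 3.87, 3.09 and 3.37 CPM, with no overlap. Control B was here among the high libraries, in contrast to mtl-2. hizr-1, the nuclear receptor that senses high zinc and activates cdf-2 and mtl-1, had too few counts to be tested. It is named after its values were seen, with 52, 4 and 13 counts among the controls and 1, 9 and 1 counts among the RNAi libraries.

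Among 7 tested iron genes, smf-1 (-1.48), frh-1 (-1.19) and hif-1 (-0.87) were called lower (edgeR adjusted p 0.0651, 0.0842 and 0.0962) and fpn-1.1 higher (1.43, edgeR adjusted p 0.0933). smf-1 encodes a divalent metal importer, frh-1 the frataxin of iron-sulfur cluster assembly, hif-1 the hypoxia factor that restrains ftn-1 when iron is scarce, and fpn-1.1 a ferroportin, the family that exports iron. Over the 6 fits that each left out 1 library, hif-1 was called in 0, and smf-1, frh-1 and fpn-1.1 in 1 each. fpn-1.1 lost its call and changed sign with library size alone (-0.17, edgeR adjusted p 0.880). fpn-1.2, a second ferroportin gene, is named after its values were seen. It had 163, 11 and 57 counts among the controls and 2, 36 and 0 counts among the RNAi libraries. As in ftn-1, control B was lowest among the controls and RNAi B highest in its labelled group. It was not called (log2 fold change -1.50, edgeR adjusted p 0.410).

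Among 6 tested cadmium and heavy metal genes, hmt-1, an ABC transporter of heavy metal tolerance, was called higher (1.29, edgeR adjusted p 0.0747). It had 294, 378 and 164 counts among the controls and 308, 376 and 419 counts among the RNAi libraries, so the counts overlapped whereas the TMM-scaled levels did not. With library size alone it was -0.23 (edgeR adjusted p 0.788). Of 3 copper genes, cuc-1, a copper chaperone, was called lower (-1.22, edgeR adjusted p 0.0796).

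Of 6 tested heme genes hrg-3, a heme chaperone that leaves the intestine, was called lower (-2.28, SE 0.81, edgeR adjusted p 0.0876). Its counts were 322, 146 and 297 among the controls and 16, 68 and 6 among the RNAi libraries. Among the tested heme genes 5 of 6 had control B lowest among controls and RNAi B highest in its labelled group, also with library size alone. This compares with 54.1% and 37.8% of the 37 other metal-handling genes, heme genes included, and 20.1% and 13.4% of all tested genes. By metal the share was 57.1% for iron, 66.7% for copper, 50% for cadmium and 40% for zinc. This order was noticed in the counts and carries no test. hrg-1, a heme importer of the intestine, is given after its values were seen. It had 517, 160 and 285 counts among the controls and 83, 608 and 60 counts among the RNAi libraries, and was not called (0.58, edgeR adjusted p 0.624).

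**Figure D4:**
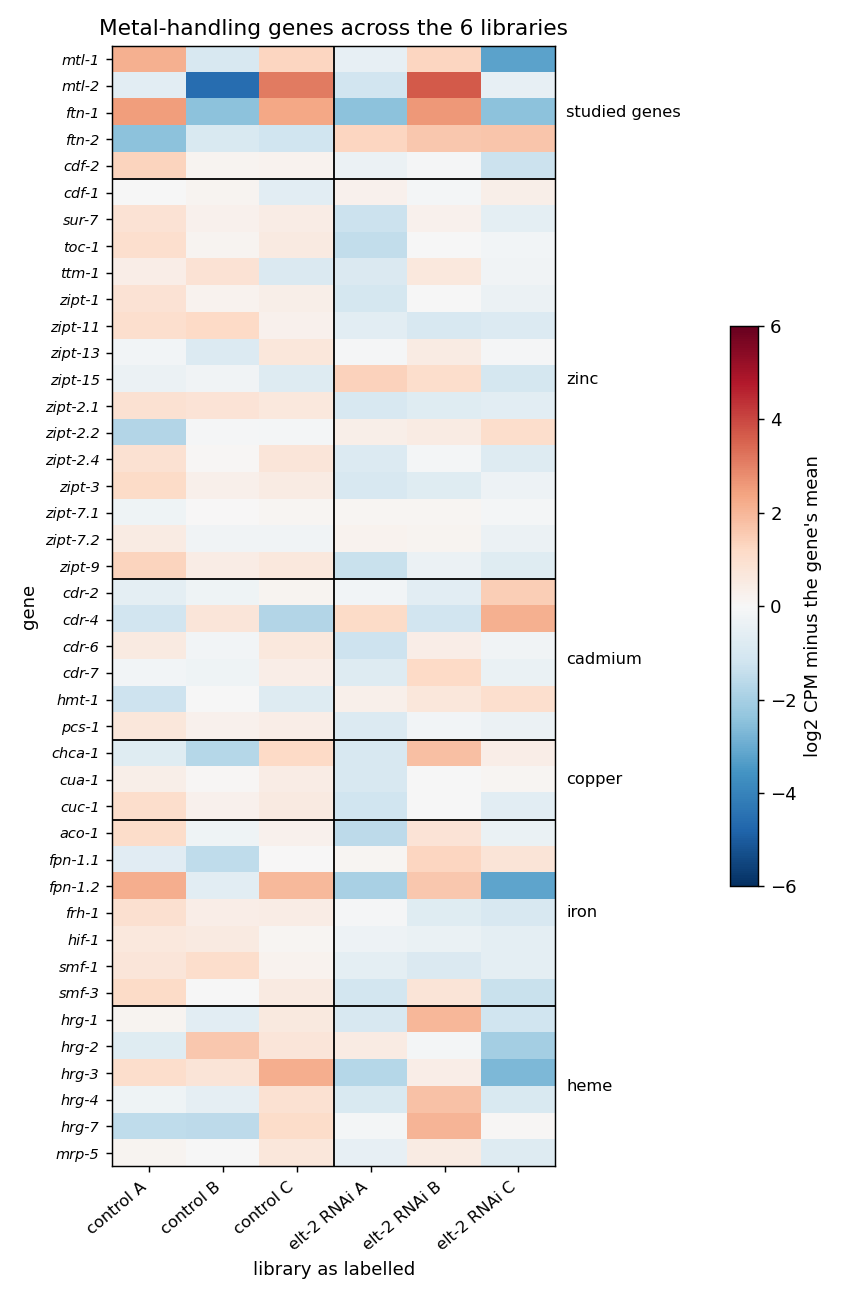
Log2 CPM of 5 of the studied genes and the 37 other tested metal-handling genes in each library, each minus the mean of the gene over the 6 libraries (red above, blue below), in blocks by metal. mtl-1, mtl-2 and ftn-1 at the top are below their means in control B and in RNAi A and C. The colour is nearly white for mtl-1 in RNAi A (-0.51) and mtl-2 in RNAi C (-0.47). mtl-2 is also below its mean in control A (-0.64). fpn-1.2 and hrg-1 resemble mtl-1 and ftn-1 in control B and in RNAi A and C, while the called zinc transporters are blue or nearly white in all 3 RNAi libraries.

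The genes whose log2 CPM across the 6 libraries was most like that of each gene were sought among 3527 others with a mean of at least 10 CPM. With 6 libraries high correlations are common, and the points share depth and scaling. mtl-2 was most like T21H3.1, cpr-5 and pdhb-1 (Pearson r 0.990, 0.989 and 0.986). cpr-5, a cathepsin B protease gene, had 3249, 118 and 16060 counts among the controls and 644, 23010 and 501 counts among the RNAi libraries. It was chosen for its likeness to mtl-2, and its high values in control C and RNAi B are a description.

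ftn-1 was most like pho-11, nlt-1 and rpn-13 (r 0.987, 0.985 and 0.985). pho-11, of the acid phosphatase family, had 2182, 6 and 924 counts among the controls and 8, 438 and 10 counts among the RNAi libraries. It was chosen for this likeness, so its low values in the 3 libraries without ftn-1 reads restate the choice. mtl-1 was most like C28H8.3, F31F7.1 and herd-1 (r 0.964, 0.963 and 0.944), cdr-1 like hgo-1, mrp-5 and C01G8.1 (r 0.984, 0.963 and 0.960), and cdf-2 like pmt-1, npp-7 and eea-1 (r 0.985, 0.977 and 0.970). ftn-2 was most like ucr-1, rpt-2 and Y11D7A.10 (r 0.999, 0.998 and 0.998), of which ucr-1 encodes a core subunit of respiratory complex III. rpt-2 had 1629, 1064 and 775 counts among the controls and 931, 864 and 791 counts among the RNAi libraries. Its likeness to ftn-2 is thus in the TMM-scaled levels and not in the counts.

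Among the 6 genes, correlations over the libraries divided ftn-2 from most others. ftn-1 had r of 0.87 with mtl-1, 0.86 with cdr-1 and 0.74 with mtl-2, while ftn-2 had -0.41 with ftn-1, -0.57 with mtl-1 and -0.85 with cdf-2, and 0.22 with mtl-2. The remaining values of mtl-2 were 0.46 with mtl-1, 0.59 with cdr-1 and -0.01 with cdf-2. These values describe 6 libraries and rest in part on counts of 0. In position, 4 of the 6 genes lie on chromosome V, which held 22.4% of the annotated genes of the table, and none of the 6 overlaps another annotated gene.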

How the data were processed

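Raw read counts for each gene were used as deposited, in 1 table with a column for each of the 6 libraries. Bowtie 0.12.7 is named in the submitters' processing notes, and the study counted uniquely mapped reads. The counting program, genome build, annotation and use of strand are not given in the sources used here, and reads of related genes can be lost or split. Sequence names were paired with the WBcel235 annotation (Ensembl release 115) and RefSeq symbols for 19078 of 19512 genes (97.8%); coordinates are of WBcel235.

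The members, lists and alternatives were chosen with earlier results of these data known. Genes were filtered with filterByExpr, scaled with TMM factors and tested with edgeR 4.0.16 in R 4.3.3, with group as the only term. Each SE was derived from the log2 fold change and its F statistic. Named were the 6 members, elt-2, each listed metal-handling gene called, and the 3 genes most correlated with each member. Genes of the cell type lists were also named, with the counts of cpr-6 given because it had the order of the B libraries. hizr-1, fpn-1.2 and hrg-1 were named after their values were seen. A count of 0 was given a limit of 3 counts. No sequences were used here. Alternatives were other scalings and filters, DESeq2 1.42.0, a replicate block, leaving out libraries and an adjusted p under 0.05. P-values set the difference between the labelled groups against the spread between these cultures.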

Additional observations from a re-analysis of the deposited data

How the results depend on the processing

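The rise of ftn-2 kept its direction under all alternatives run, and its call in all but the fit without elt-2 RNAi C (2.93). It was smallest with library size alone (1.57). Fits without 1 library gave 2.49 to 3.17 for ftn-2, -2.51 to -0.57 for mtl-1, -2.39 to 3.89 for mtl-2, -8.34 to -0.16 for ftn-1 and -1.65 to -0.89 for cdf-2, with 0 members called lower and 0 to 1 higher, 0 to 8 other metal genes lower and 0 to 2 higher, and 20 to 2360 of all genes lower and 445 to 1930 higher. mtl-2 changed sign with library size alone (-0.29), with the replicate block (-0.083), without both B libraries (-3.09), without control A (-0.041), without control B (-0.053) and without elt-2 RNAi B (-2.39). The cause of these changes was not tested.

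Library size alone gave 6000 lower and 441 higher calls, 2 members (mtl-1 at -3.14, cdf-2 at -3.25) and 23 other metal genes were lower and 0 of these higher, with hmt-1 at -0.23 and fpn-1.1 at -0.17. Without the most abundant 3% of genes 3893 genes, 1 member (cdf-2, -1.96) and 15 other metal genes were lower and 0 of the latter higher. With no filter 5 other metal genes were lower and 1 higher, while 18.1% of all tested genes were called. Without both B libraries 978 genes were lower and 885 higher, 2 members were lower (mtl-1 -3.17, ftn-1 -8.94), and 8 other metal genes were lower and 1 higher. At an adjusted p under 0.05, 675 genes were lower and 912 higher, and 3 other metal genes lower and 0 higher.

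Same-lettered libraries did not deviate together: the correlations of their deviations from the group means were -0.21, -0.57 and -0.10 for A, B and C, and no library correlated best with its own letter. With the replicate block 339 genes were lower and 880 higher, and 1 other metal gene was lower and 0 higher, while ftn-2 stayed called (3.05, edgeR adjusted p 0.0525).

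DESeq2 gave no adjusted p for mtl-2, and ftn-1 and cdf-2 had no value where at least 10 counts were required in every library. Low counts limited what could be read from cdr-1, cdf-2 and ftn-1. The limits on counts of 0 cover counting error only.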
